A study of Mus musculus with 12 samples.

Results

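The 88 genes described here encode keratins, desmosomal plaque proteins, cadherins, protocadherins, claudins, other tight junction proteins, connexins and catenins. They were chosen by gene symbol, with no measured value in the choice, from a count table of 17718 genes: names beginning with Krt, Cldn, Dsg, Dsc, Pcdh, Gja, Gjb or Gjc and a number or cluster letter, numbered Cdh genes other than Cdh2, Pkp1 to Pkp4, the Tjp genes, and Dsp, Jup, Epcam, Ocln, F11r, Ctnna1 and Ctnnd1. The table held 88 of 220 mouse gene names that fit this choice. Each gene of the table was above 0 in 3 or more libraries, and the other 132 names, among them Cdh1 (E-cadherin), Epcam, Dsp (desmoplakin), Ocln (occludin), Krt19 and all 9 Dsg and Dsc desmosomal cadherin genes, are not analysed here.

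RNA-seq was performed on cultured CT26 cells, a mouse colorectal carcinoma line. There were 3 libraries of wild-type cells, labelled as untreated, and 3 of cells with Mll3 knocked out; the former are called Mll3 intact or wild-type below. Mll3 is an older name of Kmt2c, a methyltransferase that places methyl groups on lysine 4 of histone H3 at enhancers. The labels do not say whether the knock-out cells are 1 clone, several clones or an edited pool, and the knock-out columns are named sg1 to sg3, which may stand for guides or for replicates. The CUT&Tag and single-cell data of the study are left aside.

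Keratins are the intermediate filament proteins of epithelial cells and form filaments only as pairs of a type I and a type II chain, such as K18 with K8 in simple epithelia like that of the colon. Desmosomes tie these filaments to the cell membrane through plaque proteins, adherens junctions tie actin to cadherins through catenins, tight junctions seal the space between cells through claudins held by ZO scaffold proteins, and connexins form the channels of gap junctions. Loss of these genes, with repression by factors such as SNAI2 and ZEB2 that bind E-box sequences in DNA, is a well known part of the change from an epithelial to a mesenchymal state.

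Library totals ran from 9559658 to 13406013 counts, and Kmt2c, the targeted gene, ranged from 24.9 to 26.2 CPM with Mll3 intact and measured 15.9, 11.1 and 14.8 CPM in knock-out libraries (log2 fold change -0.87, SE 0.129). CPM values here are scaled to the library total with TMM factors; they are not corrected for gene length, so levels are compared within a gene and not between genes. The epithelial and colon markers of a separate list were near absent: 11 of 19, among them Cdx1, Cdx2, Lgr5 and Muc2, were not among the rows analysed. The other 8 summed to 5.38 to 9.34 CPM with Mll3 intact and 8.5 to 10.8 CPM in knock-out libraries. Elf3 among them had 0 counts in wild-type and 9, 1 and 4 counts in knock-out libraries. That is 4.61-fold higher against a floor of 3 counts over the group, with counting error left out. Vil1, Cdhr2, Prss8 and Gpa33, also untested, had 10, 13, 9 and 5 counts in wild-type and 7, 12, 8 and 12 in knock-out libraries. Of the 3 tested, Cdhr5, a brush border cadherin, rose from 0.199 ± 0.196 to 2.93 ± 0.787 CPM (SD, n = 3). Lgals4 (1.24 ± 0.444 and 1.27 ± 0.024 CPM) and Esrp2 (4.88 ± 1.26 and 3.8 ± 0.977 CPM) did not pass the test. Markers of fibroblasts summed to 1036 to 1054 and 1537 to 1573 CPM, with 5 of 6 tested higher (33.1% of all genes tested were called higher and 33.2% lower), those of endothelium to 3.98 to 5.18 and 10.3 to 13 CPM, with Pecam1 and Eng, the 2 tested, higher, and those of immune cells to 19.5 to 23.5 and 19.1 to 24 CPM, with 1 of 3 tested higher and 1 lower. Cdhr5, Lgals4, Pecam1 and Lyz2 (the immune marker called higher) reached the count filter for testing in the knock-out libraries alone. For those of them called higher, the passing is tied to the direction. The part of the listed markers in the results below was not tested, and in bulk RNA fewer cells of a kind and less RNA per cell cannot be told apart.

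Of the 88 genes, 37 had enough counts to be tested, and 21 rose and 7 fell after knock-out, by the quasi-likelihood test of edgeR at an adjusted p under 0.05 over all 13013 genes tested. These 28 calls stand on a high background: 66.2% of all genes tested were called, 33.1% higher and 33.2% lower. A rise of 2-fold or more was called for 17 of the 37 and a fall of that size for 2, where the shares over all genes were 10.1% and 4.99%. In 21 of the 37 all knock-out libraries lay above all wild-type ones and in 7 below, against 34.4% and 34.3% of all genes tested. Of the 37, 7 reached the count filter in the knock-out libraries alone, 1 in the wild-type libraries alone and 2 in neither genotype alone, so for the first 8 the passing is tied to the direction. The remaining 27 reached it in both genotypes, and 14 of them rose (51.9%, against 31.7% of the 11760 genes with that property) and 6 fell (22.2%, against 35.6%). At 2-fold or more, 10 of the 27 rose and 1 fell, against 6.44% and 4.48% of those genes. The median log2 fold change of the 27 was 0.12, against -0.02 for the 11760 genes. Under 2 other scalings, by upper quartile and by library size alone, the log2 median of all genes shifted from 0.02 to 0.17 and 0.14, and 3 and 4 of the genes were lower in place of 7. Those that lost the call were Pkp4, Tjp1 and Pcdh1 with both scalings and Cdh13 with the former.

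**Figure D1:**
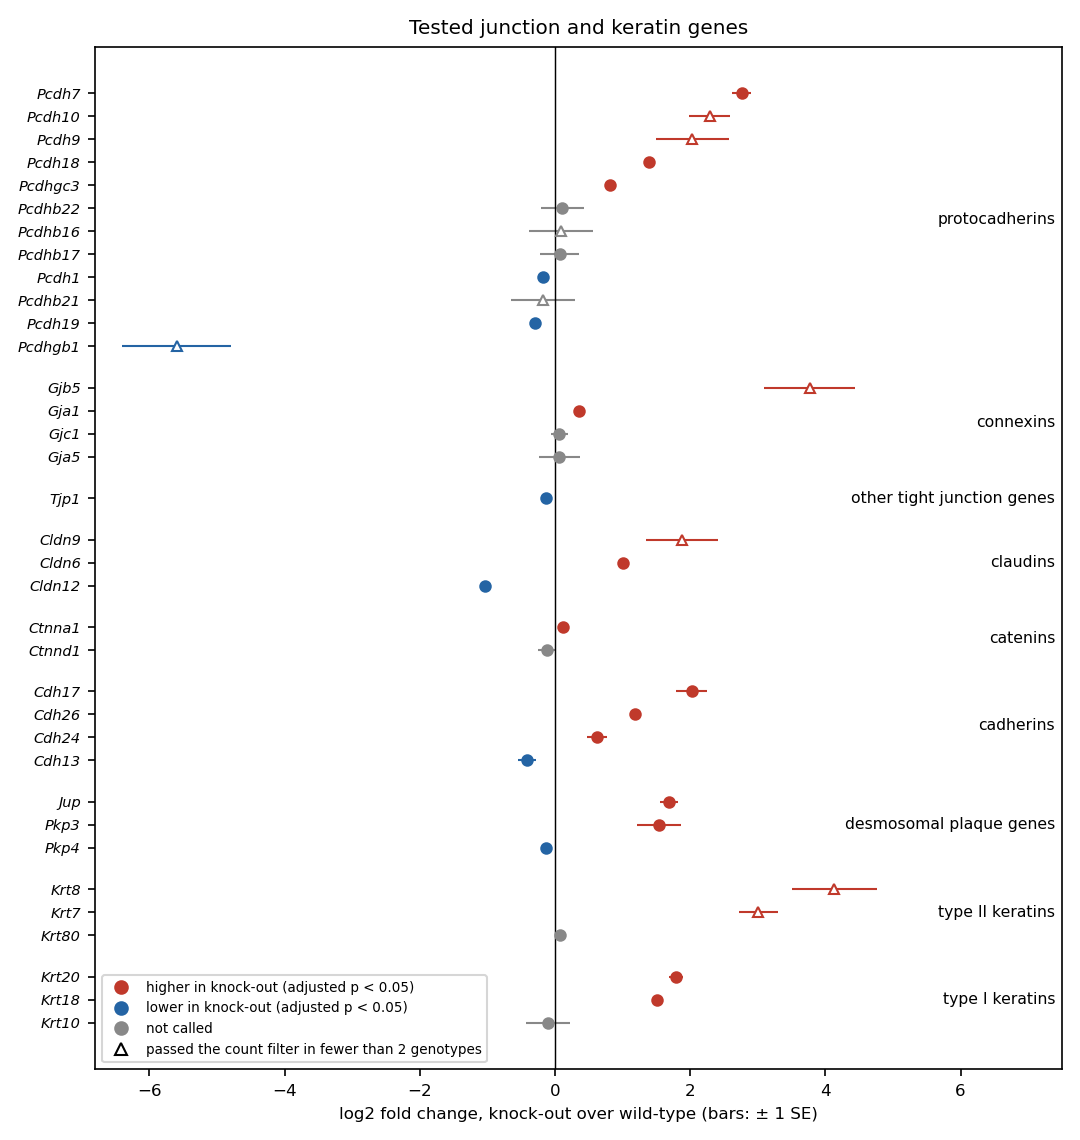
Log2 fold change (knock-out over wild-type, x axis) with 1 standard error for 35 of the 37 tested genes, grouped by family; red marks genes called higher, blue lower and grey not called, and open triangles mark genes that did not reach the count filter in both genotypes. Rises of over 1 on the log2 scale occur among the keratins, plaque genes, cadherins, claudins, connexins and protocadherins, while Cldn12 and Pcdhgb1 are the genes that fell by over 1.

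The upstream sequences of 5 genes that rose are shown first, for the E-box CAGGTG, which the proteins of Snai2 and Zeb2 bind (values of both genes are given below). The sequences are from RefSeq on GRCm38.p6, the assembly called mm10, cover the 250 bases before an annotated transcript start and are written 5′ to 3′ on the strand of the gene; capitals mark CAGGTG or its reverse complement CACCTG. They were chosen after the values were seen, 4 because they hold the motif and Krt20 because it holds none.
Krt8, chr15:102004343-102004592, minus strand: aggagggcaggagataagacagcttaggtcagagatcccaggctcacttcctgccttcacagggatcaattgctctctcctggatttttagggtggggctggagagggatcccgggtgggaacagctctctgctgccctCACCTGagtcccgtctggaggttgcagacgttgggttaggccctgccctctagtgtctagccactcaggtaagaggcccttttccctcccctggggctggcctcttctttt
Krt18, chr15:102027966-102028215, plus strand: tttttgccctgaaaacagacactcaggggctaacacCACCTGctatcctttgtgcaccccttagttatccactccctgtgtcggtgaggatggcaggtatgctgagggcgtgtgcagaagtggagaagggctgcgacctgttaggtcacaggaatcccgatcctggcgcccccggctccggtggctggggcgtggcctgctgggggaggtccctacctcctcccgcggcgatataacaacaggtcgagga
Krt7, chr15:101412153-101412402, plus strand: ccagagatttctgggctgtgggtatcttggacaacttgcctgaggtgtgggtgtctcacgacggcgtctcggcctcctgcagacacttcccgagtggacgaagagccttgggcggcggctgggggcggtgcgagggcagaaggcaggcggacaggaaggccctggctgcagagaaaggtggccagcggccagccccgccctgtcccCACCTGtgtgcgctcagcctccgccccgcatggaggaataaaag
Cldn6, chr17:23679115-23679364, plus strand: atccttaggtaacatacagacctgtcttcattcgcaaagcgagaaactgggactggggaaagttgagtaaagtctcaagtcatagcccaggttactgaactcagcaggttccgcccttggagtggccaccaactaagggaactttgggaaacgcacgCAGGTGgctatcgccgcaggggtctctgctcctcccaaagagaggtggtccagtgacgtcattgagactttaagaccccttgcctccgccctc
Krt20, chr11:99438154-99438403, minus strand: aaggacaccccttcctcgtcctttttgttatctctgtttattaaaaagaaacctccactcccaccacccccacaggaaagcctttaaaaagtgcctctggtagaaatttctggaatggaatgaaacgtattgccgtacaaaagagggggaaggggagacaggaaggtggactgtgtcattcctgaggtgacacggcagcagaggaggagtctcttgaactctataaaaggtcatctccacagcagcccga

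The match began 111 bases before the start in Krt8, 214 in Krt18, 44 in Krt7 and 93 in Cldn6. The promoter table held 21 of the 37 tested genes with 26 windows. Of these windows 6 (23.1%) held the E-box, against 15.2% of the 11975 windows of all genes tested and 17.2% of all 32851 windows. By gene, 4 of the 14 that rose held it, as did 1 of 4 that fell (Pkp4) and 1 of 3 that were not called (Krt10). Of 2 other motifs searched on both strands, the AP-1 motif TGANTCA was in 1 of the 26 windows (Gja1; 4.62% of the windows of genes tested) and the Grainyhead motif, AACCNGTT or AACNGGTT, in 0 (1.56%). A match describes the letters of the window and does not show binding.

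Krt18, Krt20, Krt7 and Krt8 were higher in the knock-out, while Krt80 and Krt10 were not called. Krt18, the type I chain of simple epithelia (chr15:102028216-102032026), was measured at 40.5, 37.8 and 38.1 CPM with Mll3 intact and at 105, 117 and 111 CPM after knock-out. All 3 knock-out libraries were far above the wild-type ones, a 2.85-fold rise (log2 fold change 1.51, SE 0.0676, edgeR adjusted p = 2.48e-27). Krt20, a type I chain of differentiated gut epithelium (chr11:99428385-99438153), had 14.4, 15 and 15.5 CPM with Mll3 intact and 54.4, 53.5 and 47.2 CPM after knock-out. It rose 3.47-fold (log2 fold change 1.79, SE 0.1, adjusted p = 6.04e-23), again with no overlap of the groups.

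The type II chains Krt7 and Krt8 were close to absent from wild-type cells. Krt7, a chain of ductal and glandular epithelia (chr15:101412403-101427806), had 16, 13 and 7 counts with Mll3 intact and 99, 93 and 103 after knock-out, or 1.11 ± 0.311 and 9.2 ± 1.01 CPM (SD, n = 3; log2 fold change 3.01, SE 0.282). Krt8, the usual partner of Krt18 (chr15:101996711-102004342), had 1, 1 and 2 counts with Mll3 intact and 16, 37 and 25 after knock-out, or 0.132 ± 0.0732 and 2.39 ± 0.816 CPM (log2 fold change 4.13, SE 0.629, adjusted p = 7.51e-08). Krt8 has near-identical copies (Krt8-ps is among the mouse gene names), so reads that fit several places may have been lost from it and its level is uncertain. Both genes reached the count filter in the knock-out libraries alone.

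Krt80, a type II chain that lies 64.1 kb from Krt7, had 52.6, 53.5 and 46.3 CPM with Mll3 intact and 51.7, 55.5 and 53.5 CPM after knock-out, with overlapping groups (log2 fold change 0.08, SE 0.0769, adjusted p = 0.397). It was called higher with upper-quartile scaling (0.23) and library size alone (0.20), and it was called lower, at -0.38, once the median of its neighbours was taken off (below). Krt10, a type I chain of stratified epidermis, had 1.88, 2.75 and 5.38 CPM with Mll3 intact and 3.32, 2.76 and 3.07 CPM after knock-out. Its wild-type spread covered all 3 knock-out libraries (log2 fold change -0.10, SE 0.324), and the sign changed to 0.41 without wild-type replicate 3. Krt5, Krt17 and Krt13, chains of stratified epithelia, and 10 further keratins were below the filter, with at most 41 counts over the 6 libraries in a type II and 17 in a type I gene.

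**Figure D2:**
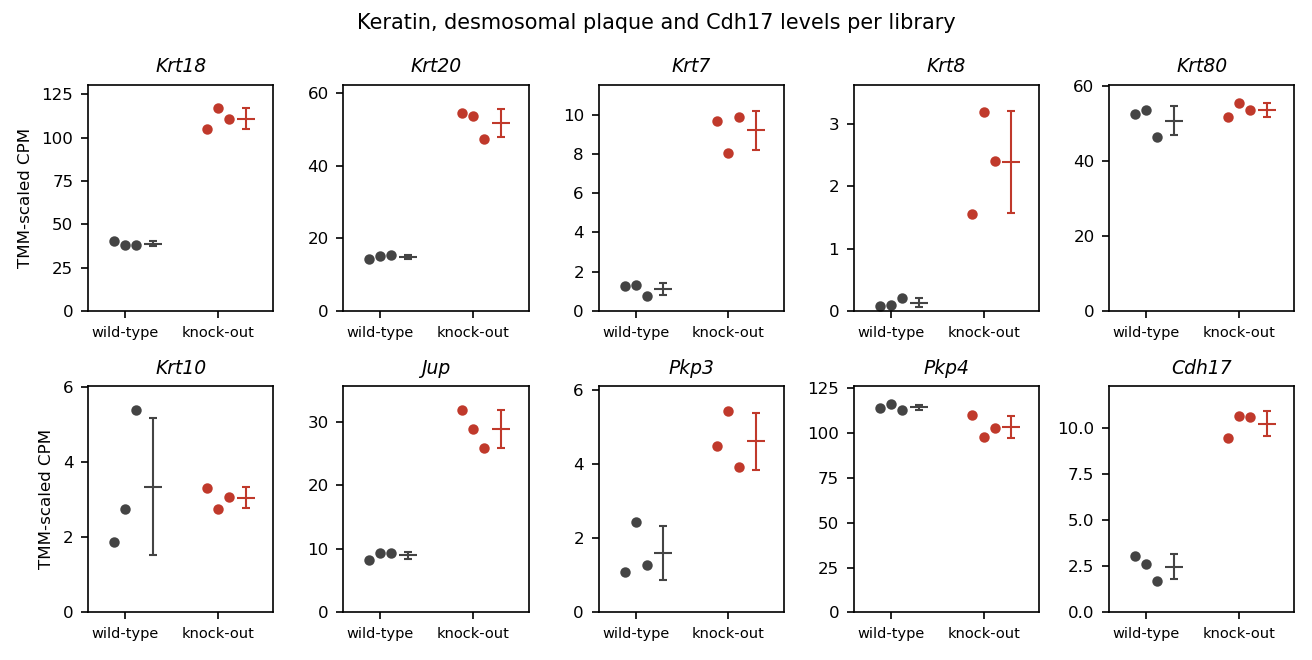
TMM-scaled CPM (y axis, from 0) of 6 keratin genes, the plaque genes Jup, Pkp3 and Pkp4, and Cdh17 in each of 3 wild-type (black) and 3 knock-out (red) libraries; horizontal marks with bars are the mean and SD. The groups lie apart for Krt18, Krt20, Krt7, Krt8, Jup, Pkp3 and Cdh17, overlap for Krt80 and Krt10, and lie close together for Pkp4.

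In the desmosomal plaque, Jup and Pkp3 rose, and Pkp4 fell by a small amount whose sign depended on the scaling (0.02 on the log2 scale with upper-quartile scaling). Jup (plakoglobin), which links desmosomal and classical cadherins to the cytoskeleton, had 8.32, 9.27 and 9.37 CPM with Mll3 intact and 31.8, 28.8 and 25.9 CPM after knock-out. That is a 3.22-fold rise with no overlap (log2 fold change 1.69, SE 0.133, adjusted p = 8.96e-17). Pkp3 (plakophilin 3), a plaque protein found in most epithelia, had 1.1, 2.44 and 1.29 CPM with Mll3 intact and 4.5, 5.44 and 3.93 CPM after knock-out (log2 fold change 1.54, SE 0.329). Pkp4, a relative of p120 catenin found at adherens junctions as well, had 114 ± 1.53 and 104 ± 6.36 CPM (-0.14 on the log2 scale, SE 0.0554, adjusted p = 0.0231). This call was lost with library size alone, upper-quartile scaling or a stricter filter of 5 CPM on average and without wild-type replicate 2 (adjusted p = 0.0678) or knock-out library sg2 (0.116). Pkp1 and Pkp2 had 17 and 18 counts with Mll3 intact and 18 and 34 after knock-out and were not tested.

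All 4 tested cadherins were called, where 66.2% of all genes tested were. Cdh17 (LI-cadherin), the cadherin of intestinal epithelium, had 3.06, 2.65 and 1.72 CPM with Mll3 intact and 9.48, 10.7 and 10.6 CPM after knock-out, a 4.05-fold rise (log2 fold change 2.02, SE 0.23, adjusted p = 3.25e-11). Cdh26, a cadherin reported in epithelia, rose from 56.8, 52 and 50.8 to 117, 126 and 122 CPM (log2 fold change 1.19, SE 0.0622). Neither pair of groups overlapped. Cdh24 rose less, from 9.72 ± 0.774 to 14.9 ± 1.35 CPM (log2 fold change 0.62, SE 0.154), and Cdh13 (T-cadherin), a membrane-anchored cadherin without a cytoplasmic tail, went down from 19.5 ± 1.87 to 14.6 ± 1.09 CPM (-0.42, SE 0.133). These smaller changes went the way of their chromosomes: the median of tested genes was 0.35 on chromosome 14 and -0.36 on chromosome 8, and with chromosome medians removed Cdh24 had 0.28 (adjusted p = 0.113) and Cdh13 -0.07 (adjusted p = 0.682). Cdh17 and Cdh26 kept 1.98 and 1.17, but Cdh26 had 0.77 with its local median removed (0.43, over its tested neighbours within 2 Mb).

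Among cadherins below the filter, Cdh6 had 0 counts with Mll3 intact and 7, 3 and 2 after knock-out. That is 3.95-fold higher against a floor of 3 counts over the group (counting error left out). Cdh3 (P-cadherin), which binds catenins as E-cadherin does, had 9, 9 and 0 counts with Mll3 intact and 1, 0 and 0 after knock-out, a ratio of 18.2 (exact binomial 95% interval 2.88 to 759, counting error only), with 1 wild-type library also at 0. Of the catenins, Ctnna1 (alpha-catenin), which couples cadherins to actin, had 420, 438 and 419 CPM with Mll3 intact and 461, 480 and 449 CPM after knock-out. The groups did not overlap, but the rise was small (log2 fold change 0.12, SE 0.0373, edgeR adjusted p = 0.0033). It was not called without knock-out library sg2 (0.09, adjusted p = 0.0621). With chromosome medians removed it was 0.44, where chromosome 18 had a median of -0.32. With its local median of 0.02 removed it was 0.10 (adjusted p = 0.0183). Ctnnd1 (p120 catenin), which holds cadherins at the membrane, had 19.8 ± 1.6 and 18.2 ± 2.08 CPM (adjusted p = 0.393).

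The claudins moved both ways. Cldn12, a claudin that lacks the usual PDZ-binding end, had 427, 449 and 408 CPM with Mll3 intact and 206, 203 and 217 CPM after knock-out. It fell 2.05-fold with no overlap (log2 fold change -1.04, SE 0.0416, adjusted p = 1.46e-29). Cldn6, a claudin of embryonic epithelium, went the other way, from 91.6, 78 and 82.6 to 170, 161 and 179 CPM. Its log2 fold change was 1.01 (SE 0.0558; adjusted p = 3.48e-23). Cldn9, whose start lies 3.2 kb from that of Cldn6 on chromosome 17, had 6, 3 and 4 counts with Mll3 intact and 17, 14 and 18 after knock-out (log2 fold change 1.88, SE 0.538), and it reached the filter in the knock-out alone. Cldn15, Cldn18 and Cldn20 had at most 38 counts over the 6 libraries and were not tested.

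Tjp1 (ZO-1), a scaffold that ties claudins to actin, fell 1.1-fold with the TMM scaling but not with 2 others. It had 224, 218 and 213 CPM with Mll3 intact and 195, 196 and 203 CPM after knock-out, close but without overlap (log2 fold change -0.14, SE 0.0435, adjusted p = 0.00373). That value became -0.02 under library-size scaling and 0.02 under upper-quartile scaling, neither called. The call was also lost with local medians removed (-0.08, edgeR adjusted p = 0.089), but kept with chromosome medians removed (-0.22, adjusted p = 1.05e-05). Tjp3 (ZO-3) and F11r (JAM-A), a tight junction adhesion receptor, had 9 and 8 counts over all libraries and were not tested.

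Among connexins, Gjb5 rose from near 0. This connexin of skin and placenta had 1, 3 and 0 counts with Mll3 intact and 23, 22 and 15 after knock-out (log2 fold change 3.77, SE 0.672, adjusted p = 2.21e-06). The groups did not overlap, and the gene reached the filter in the knock-out alone.

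Gja1 (connexin 43), the most widely expressed connexin, had 150, 147 and 151 CPM with Mll3 intact and 185, 189 and 197 CPM after knock-out (log2 fold change 0.35, SE 0.0463). The rise was close to the median of its chromosome 10 (0.36), and with chromosome medians removed it was -0.01 (adjusted p = 0.861). Gjc1 and Gja5, connexins known from the heart and vessels, had 19.6 ± 3.75 and 20.3 ± 0.684 CPM, and 3.15 ± 0.725 and 3.23 ± 0.581 CPM, and were not called (log2 fold change 0.06 for each, SE 0.127 and 0.304).

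**Figure D3:**
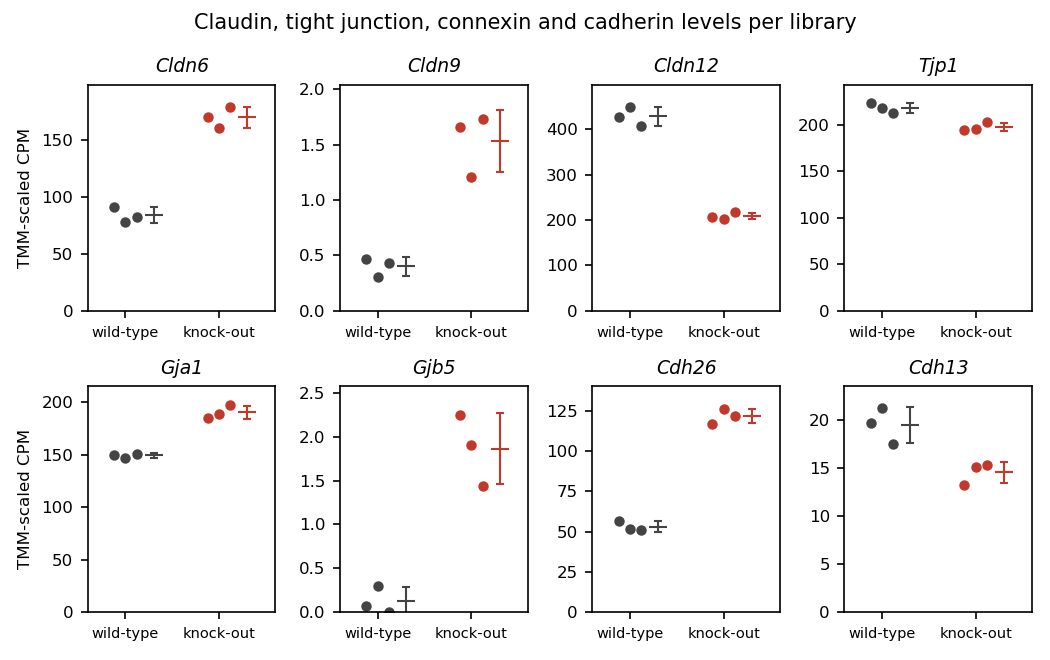
TMM-scaled CPM (y axis, from 0) of claudin, Tjp1, connexin and cadherin genes in each of 3 wild-type (black) and 3 knock-out (red) libraries; horizontal marks with bars are the mean and SD. Cldn12 is the gene of this set whose level fell by about 2-fold (2.05), while Cldn6, Cldn9, Gjb5 and Cdh26 rose by 2.01-fold to 13.6-fold.

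Protocadherins, cadherin relatives known best for cell recognition in the nervous system, were the most numerous family, with 37 genes in the table and 12 tested, of which 5 rose, 3 fell and 4 were not called; this is near the 66.2% called among all genes tested. Pcdh7 had 5.26, 5.4 and 5.28 CPM with Mll3 intact and 36.6, 35 and 36.8 CPM after knock-out. This 6.79-fold rise was far beyond the spread within either group (log2 fold change 2.76, SE 0.136, adjusted p = 1.86e-25). Pcdh18 rose from 44.9, 43.6 and 42.3 to 106, 117 and 121 CPM (log2 fold change 1.39, SE 0.0663). Pcdh10, which starts 4364.9 kb from it on chromosome 3, had 0.785, 2.34 and 1.4 CPM with Mll3 intact and 8.21, 7.17 and 6.24 CPM after knock-out (log2 fold change 2.29, SE 0.303).

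These genes belong to the protocadherins that stand alone in the genome, of which 6 were tested. Pcdh9 also rose, from 5, 7 and 1 counts to 19, 20 and 16 (log2 fold change 2.03, SE 0.538). Both Pcdh9 and Pcdh10 reached the count filter in the knock-out libraries alone. Pcdh19, mutated in a form of epilepsy, went down from 97.5 ± 6.4 to 79.3 ± 2.83 CPM (-0.30 on the log2 scale, SE 0.0608, and -0.18 with local medians removed), and Pcdh1, a protocadherin of airway epithelium, from 72.7 ± 3.29 to 63.9 ± 0.606 CPM (-0.18, SE 0.0666, adjusted p = 0.0136). The call for Pcdh1 was lost with upper-quartile scaling, library size alone, the stricter filter, chromosome or local medians removed and without wild-type replicate 3, and its sign turned with chromosome medians removed (0.13). Pcdh15 had 2, 3 and 4 counts with Mll3 intact and 0 after knock-out. That is 3.03-fold lower against a floor of 3 counts over the group (counting error left out).

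The clustered protocadherins on chromosome 18 are made from many alternative first exons, each with its own promoter, and in the gamma cluster these join shared last exons. How reads in such shared exons were counted is not given in the sources, and the counts of single gamma genes are uncertain for that reason; the 14 gamma genes of the table end within 10 bases of each other. Pcdhgb1 had 29, 22 and 15 counts with Mll3 intact and 0, 1 and 0 after knock-out, a ratio of 66.8 (95% interval 11.6 to 2677; edgeR adjusted p = 2.4e-08). It reached the count filter in the wild-type libraries alone. Pcdhgc3, in contrast, rose from 48.7, 52.4 and 57.8 to 89, 97.5 and 90.3 CPM (log2 fold change 0.81, SE 0.0684). The medians of tested neighbours within 2 Mb of these genes were 0.02 and -0.01, although the whole chromosome had -0.32.

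Summed over their genes, which was chosen after the values were seen, the 11 gamma A and B genes had 5.34, 8.15 and 6.78 CPM with Mll3 intact and 2.15, 3.71 and 2.3 CPM after knock-out, with all knock-out libraries below the wild-type ones. The 3 gamma C genes had 48.9, 52.9 and 57.9 CPM with Mll3 intact and 91.2, 98.7 and 91.3 CPM after knock-out, nearly all of it Pcdhgc3 (1673 of 1680 and 2980 of 3028 counts). The 15 beta genes had 12.7 ± 0.76 and 13 ± 1.24 CPM with overlapping libraries, and the 4 of them that were tested, Pcdhb16, Pcdhb17, Pcdhb21 and Pcdhb22, had log2 fold changes of 0.09, 0.07, -0.18 and 0.11, none called. Within the gamma A and B group the genes were not alike: Pcdhgb7 had 45 counts with Mll3 intact and 7 after knock-out and Pcdhga4 13 and 1, whereas Pcdhga8 had 2 and 13 and Pcdhga1 16 and 21. Without Pcdhgb1 and Pcdhgb7 the other 9 genes summed to 100 and 81 counts, or 3.24 ± 0.928 and 2.48 ± 0.729 CPM, with overlapping libraries. Pcdhb8 had 10 counts with Mll3 intact and 0 after knock-out, 3.37-fold lower against a floor of 3 counts over the group (counting error left out).

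**Figure D4:**
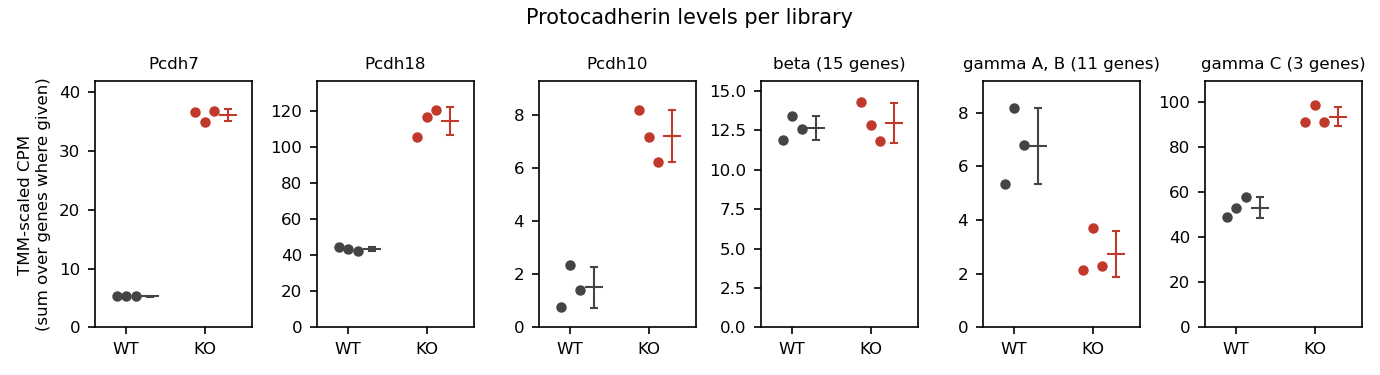
TMM-scaled CPM (y axis, from 0) of Pcdh7, Pcdh18 and Pcdh10 and of the summed beta, gamma A and B, and gamma C genes in 3 wild-type (WT, black) and 3 knock-out (KO, red) libraries; horizontal marks with bars are the mean and SD. The beta sums overlap between genotypes, the gamma A and B sums are lower in the knock-out (6.76 ± 1.41 against 2.72 ± 0.862 CPM; Pcdhgb1 and Pcdhgb7 hold most of the difference) and the gamma C sums, nearly all Pcdhgc3, higher (53.2 ± 4.53 against 93.8 ± 4.3 CPM).

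Many of the genes lie in clusters, and neighbours did not always move together. In the 683.7 kb cluster of type II keratins on chromosome 15, which also holds Krt18, Krt7, Krt8 and Krt18 rose while Krt80 was not called. Krt83, Krt84 and Krt88, between them, had 4, 8 and 2 counts with Mll3 intact and 20, 20 and 19 after knock-out, while Krt86 had 20 and 21; 13 counts each of Krt83 and Krt84 came from knock-out library sg3. The genes around the keratin cluster were themselves higher in the knock-out, with a median log2 fold change of 0.47 over 53 tested genes within 2 Mb of Krt18 that are not keratins or junction genes. With such local medians taken off, Krt18 had 1.04, Krt7 2.55 and Krt8 3.69, all called.

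Local medians could be taken for 33 of the 37 genes and ran from -0.30 to 0.47. Of 24 called genes among these, 18 had the sign of their local median. The share over all called genes was not computed, so this count does not set these genes apart from others. With local medians removed, 16 of the 33 were higher and 5 lower, and their median log2 fold change was 0.25. The median of 0.62 without the removal covers all 37 genes, so the difference between these medians does not measure the removal. The part of the surrounding regions in the changes was not tested further. The 4 genes without enough neighbours were Gja1, Pcdh10, Pcdh7 and Pcdh9, all called higher (log2 fold changes 0.35, 2.29, 2.76 and 2.03).

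**Figure D5:**
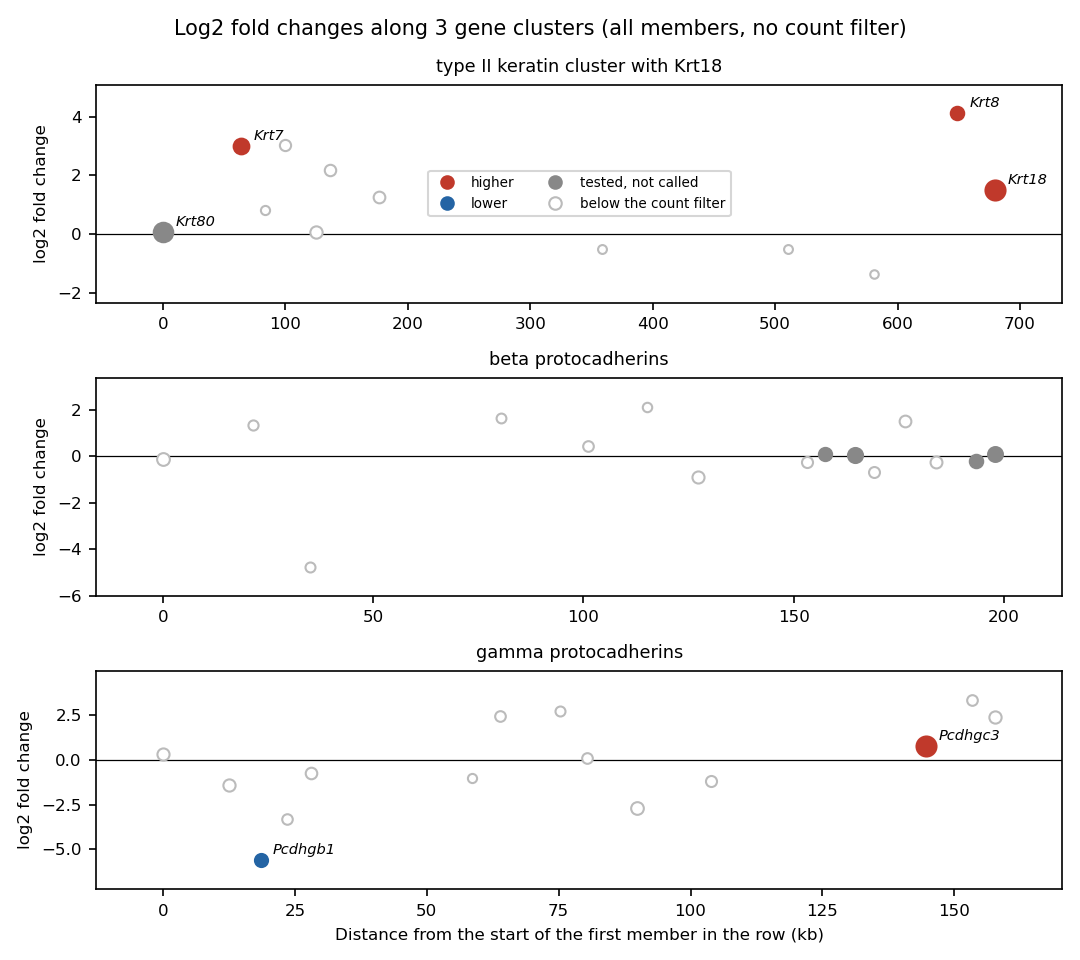
Log2 fold change (y axis, fitted without the count filter) against the distance in kb from the start of the first gene of each cluster, for all genes of 3 clusters (1 of type II keratins, 2 of protocadherins); filled points were tested (red higher, blue lower, grey not called), open points were below the count filter, and larger points had more counts. Krt80 lies at 0.06 in this fit and Krt7, near it, at 3.00, and Pcdhgb1 and Pcdhgc3 of the same cluster lie on opposite sides of 0; values of genes with 0 counts in 1 genotype depend on the fit's prior count.

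The remaining 51 genes were below the filter, with 3 to 54 counts each over the 6 libraries and a median of 15. Fitted without a filter, 5 of them were higher (Cdh6, Pcdhgc4, Pcdhgc5, Krt12 and Krt88) and 5 lower (Cdh3, Pcdh15, Pcdhb8, Pcdhga4 and Pcdhgb7), and 41 were not called. The share called among all genes below the filter was not computed, so these counts do not set the genes apart from others. Krt12, a cornea keratin, had 1 count with Mll3 intact and 16 after knock-out, a ratio of 15.8 (95% interval 2.46 to 663). Krt40 had 6 counts with Mll3 intact and 0 after knock-out, 2.02-fold lower against a floor of 3 counts over the group (counting error left out). It was not called in the unfiltered edgeR fit (adjusted p = 0.0531).

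Other genes of these junctions were taken from lists beside the families. Of 19 tested partners of adherens and tight junctions, 7 rose and 6 fell, with a median log2 fold change of 0.06; these 13 calls of 19 are near the 66.2% called among all genes tested. Lsr, among the 7 that rose, reached the count filter in the knock-out libraries alone. Vcl (vinculin), which joins alpha-catenin to actin, rose from 165, 167 and 159 to 295, 308 and 298 CPM, and Ctnnal1, an alpha-catenin relative, from 25 ± 1.14 to 67.8 ± 1.02 CPM (log2 fold changes 0.88 and 1.44). Vcl had 0.53 with chromosome medians removed and 0.32 with local medians removed. Pard3, a polarity protein that helps to place tight junctions, fell from 126 ± 6.81 to 62.6 ± 1.81 CPM (-1.01, and -0.65 with chromosome medians removed). Cdh2 (N-cadherin), the cadherin of mesenchymal cells, had 93.8 ± 8.28 and 82.5 ± 7.2 CPM with overlapping libraries (called lower at -0.18, and 0.13 with chromosome medians removed), and Ctnnb1 (beta-catenin) rose from 261 ± 7.67 to 359 ± 12.2 CPM.

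Of 12 tested genes that work with desmosomes or intermediate filaments, 8 rose and 2 fell, with a median of 0.49, beside 33.1% higher and 33.2% lower among all genes tested. Des, among the 8 that rose, reached the count filter in the knock-out libraries alone. Vim (vimentin), the filament protein of mesenchymal cells, rose too, from 1514 ± 7.16 to 2912 ± 59.9 CPM (log2 fold change 0.94, SE 0.0299), and Lmnb1, a nuclear lamin, had 1.03 (1.81 with local medians removed). Plec (plectin), which links filaments to other structures, had 0.60, and Csnk1a1, a kinase reported to act on keratin filaments, fell by 0.94 on the log2 scale (-0.59 with local medians removed). Dst, the other gene of this list that fell, went from 281 ± 3.07 to 162 ± 8.49 CPM (-0.79, and -0.38 with local medians removed). Of 3 tested connexin partners and pannexins, Dbn1 (drebrin), an actin-binding partner of connexin 43, rose (2.79), Cnst (consortin), a connexin trafficking receptor, fell (-0.61, and -0.37 with local medians removed) and Ccn3 had 0.11 (adjusted p = 0.857). Dbn1 and Ccn3 reached the count filter in the knock-out libraries alone, so for Dbn1 the passing is tied to the direction.

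Of 16 tested regulators of epithelial junction genes, 4 rose and 8 fell, beside 33.1% higher and 33.2% lower among all genes tested. Snai2, a repressor of E-cadherin and other epithelial genes, had 195 ± 1.59 CPM with Mll3 intact and fell to 52.5 ± 1.37 CPM (-1.90 on the log2 scale, SE 0.0547), and Zeb2, a repressor of the same kind, from 181 ± 3.34 to 70.1 ± 4.13 CPM (-1.37, SE 0.0541). Tcf3, which also binds E-boxes, rose from 52.7 ± 5.85 to 103 ± 6.94 CPM (0.97, and 0.61 with chromosome medians and 0.36 with local medians removed). Snai1 went from 6.74 ± 0.341 to 9.11 ± 1.76 CPM with overlapping libraries (0.43, edgeR adjusted p = 0.0451). Its call was lost with chromosome medians removed (adjusted p = 0.0599) and with no filter (0.0659). With local medians removed Snai1 was called higher (0.60, adjusted p = 0.00538). Twist1 was not called (0.00). Zeb1, a relative of Zeb2, had 26.5 ± 2.66 and 28.9 ± 1.28 CPM and was not called (0.13, adjusted p = 0.263), but it was higher with chromosome medians removed (0.45, adjusted p = 0.000166) and with local medians removed (0.75, adjusted p = 8.36e-09). Twist2 and Tcf4, also known from mesenchymal cells, were higher (0.55 and 0.50). With chromosome medians removed they had 0.74 and 0.81, and with local medians removed 0.40 and 1.04. Grhl1 and Klf5, known to turn on epithelial junction genes, fell (-2.07 and -1.22). Klf4 and Tfap2a of the same list were called lower by less (-0.30 and -0.52), and with local medians removed they had -0.03 and 0.03, neither called. Ovol1, Grhl2 and Cebpa were below the filter. Cebpa had 8, 16 and 6 counts with Mll3 intact and 1, 1 and 1 after knock-out (-3.23 in the unfiltered edgeR fit, adjusted p = 0.00175). Grhl2 had 17 and 5 counts over the groups and Ovol1 3 and 1, neither called in that fit. Trp63 (p63), a regulator of stratified epithelia listed with the filament genes, was below the filter as well, with 2, 2 and 1 counts with Mll3 intact and 20, 9 and 10 after knock-out (2.86 in the unfiltered edgeR fit, adjusted p = 0.00104). Which proteins occupy the E-boxes printed above was not measured here.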

How the data were processed

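The deposited table holds raw read counts per Ensembl gene, as the authors left them, for 6 RNA-seq libraries of CT26 cells; the labels' protocols describe a directional kit. The submitters' processing notes name fastp, STAR, HTSeq and mm10, without roles or versions; strand setting and annotation: not given in the sources used here. Symbols were found for 17650 of 17718 identifiers, positions (mm10) by symbol in RefSeq. Genes were kept with filterByExpr (minimum count 10), scaled with TMM and tested with edgeR 4.0.16 in R 4.3.3 (quasi-likelihood F test, Benjamini-Hochberg over 13013 genes, threshold 0.05). Standard errors (SE) derive from the F statistic. The pipeline was tested on simulated counts.

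The genes, lists and tests were chosen with earlier results of these data known. Genes named are the 5 with the smallest p and the most abundant in each family, those with 0 counts in 1 genotype, tested keratins within 1 Mb of a named one, Kmt2c, and 3 per partner list; others were chosen after their values were seen. Values of a few of the counted genes are not reported here. Library pairs of a genotype differed by 2.14 to 3.82 times counting noise, so none was merged. Whether each library is its own culture is not stated, and p-values therefore reflect only how these libraries vary, possibly for technical reasons. Alternatives were other scalings, no filter, a filter of 5 CPM, DESeq2 1.42.0, chromosome medians removed, each library left out and, added after seeing the data, local medians (2 Mb) removed.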

Additional observations from a re-analysis of the deposited data

How the results depend on the processing

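The 21 higher and 7 lower genes were the same counts with RLE scaling and DESeq2, and each of the 28 genes kept its call. The lower count was 3 with upper-quartile scaling, 4 with library size alone, 4 of 23 genes with the stricter filter and 12 of 88 with no filter; the higher count stayed within 14 to 26. Over the 37 tested genes the log2 fold changes had a median of 0.62, and of 0.78 with upper-quartile scaling, 0.74 with library size alone and 0.44 with chromosome medians removed. Over other sets of genes it was 0.20 with no filter (88 genes) and 0.25 with local medians removed (33 genes). With each library left out in turn the median ran from 0.54 to 0.69, the higher count from 20 to 21 and the lower count from 6 to 7. Signs changed as follows. With upper-quartile scaling Ctnnd1 had 0.03, Pkp4 0.02, Tjp1 0.02 and Krt10 0.06, and Krt10 had 0.02 with library size alone. With chromosome medians removed Gja1, called higher at 0.35, had -0.01, Pcdh1, called lower at -0.18, had 0.13, Krt80 -0.06 and Ccn3 -0.02, and with local medians removed Ctnnd1 had 0.12, Gjc1 -0.03, Krt80 -0.38 and Ccn3 -0.03. With single libraries left out, Gja5 ran from -0.13 to 0.21, Gjc1 from -0.05 to 0.22, Krt10 from -0.41 to 0.41 and Ccn3 from -0.15 to 0.42. The cause of these changes was not tested. No paired analysis was possible because the knock-out columns carry no replicate number of the labels. Counts below the filter limit what can be said of 51 genes.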
